A study of Mus musculus with 9 samples.

Results

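A set of 10 genes known from callosal and upper layer neurons of the cerebral cortex was examined in mouse cortices with and without the transcription factor FEZF2. The genes, Mdga1, Btbd3, Ntng2, Etv6, Lmo4, Cux1, Cux2, Inhba, Lpl and Rorb, were taken by symbol from a table of 24624 genes, and each symbol matched 1 row. Bulk RNA-seq libraries had been made from the dissected cerebral cortex of P0 pups, the day of birth, with 1 mouse in each library. Wild-type Fezf2+/+ pups gave 3 libraries (replicates bc201 to bc203), null Fezf2-/- pups gave 4 (bc204 to bc207) and Fezf2-/-; Fezf2-EnR pups gave 2 (bc208 and bc209). The Fezf2- null allele carries a knocked-in placental alkaline phosphatase gene under the Fezf2 promoter. Fezf2-EnR is a transgene on a bacterial artificial chromosome that uses the Fezf2 regulatory region to express a fusion of the engrailed repressor domain with the part of FEZF2 that binds DNA, and the Fezf2-/-; Fezf2-EnR pups carried it on the null background. Each group lacked 1 of the 3 litters. Litter m1 gave Fezf2+/+ replicates bc201 and bc202 and Fezf2-/- replicates bc205 and bc206, litter m2 gave bc203 and bc209, and litter m3 gave bc204, bc207 and bc208.

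Callosal neurons send axons across the midline to the opposite cortex. They are most numerous in the upper layers, and others lie in the deep layers beside the subcerebral and corticothalamic neurons that express Fezf2. Upper layer neurons are commonly marked by the cut homeodomain genes Cux1 and Cux2, and layer 4 neurons by the nuclear receptor gene Rorb. The comparison of Fezf2-/- with Fezf2+/+ asks how the expression of such genes differs once Fezf2 is lost, and the comparisons with Fezf2-/-; Fezf2-EnR ask how it stands when the repressor fusion is present.

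Values are normalized expression, the reads of a gene divided by a size factor of the library, and are given as mean ± SD over mice. Libraries held between 18716575 and 25127623 recovered reads. The targeted gene followed the labels, with Fezf2 at 1074 ± 138 (n = 3) in Fezf2+/+, 217 ± 20.8 (n = 4) in Fezf2-/- and 954 ± 66.4 (n = 2) in Fezf2-/-; Fezf2-EnR, where reads of the transgene and of the null allele cannot be told apart. In bulk cortex, fewer cells of a type and less RNA per cell cannot be told apart. The summed level of 8 GABAergic interneuron markers was 6661 to 6995 in Fezf2+/+, 8540 to 9941 in Fezf2-/-, 8025 in replicate bc208 and 6625 in replicate bc209. In bc209 the single markers went both ways. Gad2 (771), Dlx2 (637) and Dlx5 (243) were above every Fezf2+/+ library, whereas Gad1 (824), Slc32a1 (316) and Sst (399) were below every one. Dlx1 and Lhx6 were inside the Fezf2+/+ range. The summed level of 7 striatal markers reached 3472 in replicate bc204 and 2572 in replicate bc208, against 1032 to 1789 in the other 7 libraries. The part of these cell types in the values below was not tested.

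Of the 10 genes, Mdga1 and Etv6 rose in Fezf2-/- cortices against Fezf2+/+, and Mdga1 and Ntng2 fell in Fezf2-/-; Fezf2-EnR cortices against Fezf2-/-. Btbd3 had the largest fitted difference between Fezf2-/- and Fezf2+/+ among the 10, at 2.01-fold, but did not pass the test. No call was made for Lmo4, Cux1, Cux2, Inhba, Lpl or Rorb in any of the 3 comparisons. Genes were called at a Benjamini-Hochberg adjusted p under 0.05 over all 16197 genes tested with limma, and every adjusted p given is from that fit unless another is named.

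The promoters of Mdga1, Etv6, Ntng2 and Btbd3 are shown because these 4 genes had the largest fitted differences of the 10 between Fezf2-/- and Fezf2+/+. Each is the RefSeq window on GRCm38.p6, 5′ to 3′ along the gene, from 250 bases before to 50 bases after the start annotated in RefSeq. The GENCODE M21 intervals given below for Mdga1 and Ntng2 begin further upstream, so the windows of these genes lie inside them. The second Btbd3 window also lies inside its gene's interval. Capitals mark the searched motifs that were found. For Btbd3, which has 2 windows, only the second held a motif and is printed.
Mdga1, chr17:29887833-29888132, minus strand: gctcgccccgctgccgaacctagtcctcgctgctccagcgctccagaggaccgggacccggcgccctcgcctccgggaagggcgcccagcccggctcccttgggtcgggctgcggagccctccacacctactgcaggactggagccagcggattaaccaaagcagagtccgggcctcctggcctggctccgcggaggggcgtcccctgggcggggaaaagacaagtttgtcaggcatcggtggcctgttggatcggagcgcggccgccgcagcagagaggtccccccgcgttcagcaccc
Etv6, chr6:134035450-134035749, plus strand: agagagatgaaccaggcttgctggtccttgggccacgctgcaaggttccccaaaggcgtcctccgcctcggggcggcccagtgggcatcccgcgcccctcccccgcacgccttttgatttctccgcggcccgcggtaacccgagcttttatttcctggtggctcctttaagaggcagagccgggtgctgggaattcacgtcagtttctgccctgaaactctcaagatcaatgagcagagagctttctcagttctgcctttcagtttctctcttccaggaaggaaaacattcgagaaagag
Ntng2, chr2:29248050-29248349, minus strand: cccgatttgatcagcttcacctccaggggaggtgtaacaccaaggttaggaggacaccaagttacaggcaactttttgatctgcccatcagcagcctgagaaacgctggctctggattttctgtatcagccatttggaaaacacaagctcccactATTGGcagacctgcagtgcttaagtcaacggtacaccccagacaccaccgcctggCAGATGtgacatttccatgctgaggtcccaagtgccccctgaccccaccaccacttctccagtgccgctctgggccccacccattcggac
Btbd3, second start site, chr2:138278243-138278542, plus strand: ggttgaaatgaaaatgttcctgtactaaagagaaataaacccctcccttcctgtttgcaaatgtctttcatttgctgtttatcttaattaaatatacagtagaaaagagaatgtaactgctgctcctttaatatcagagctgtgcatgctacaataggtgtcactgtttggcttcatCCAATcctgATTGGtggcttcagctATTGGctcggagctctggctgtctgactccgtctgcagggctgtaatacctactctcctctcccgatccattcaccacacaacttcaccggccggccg

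The windows of Mdga1 and Etv6 held none of the 6 motifs searched on both strands. One is ATCGAT, which CUX proteins bind, and one is AGGTCA, which ROR receptors bind. The others were the CCAAT box, the TATA box in the form of TATAAA, the E-box with the letters CAGATG and the ETS core with the letters CCGGAA. In Btbd3, CCAAT lay 73 bases before the start on the gene's strand, and on the opposite strand at 64 and 48 bases before it, where it reads as ATTGG. In Ntng2, CCAAT lay on the opposite strand 95 bases before the start and CAGATG lay 40 bases before it. Of the 32851 windows in the reference, 37.41% held CCAAT and 17.15% held CAGATG. Across the 14 windows of the 9 genes that had an entry, ATCGAT was found in 1, the second Cux2 window, 72 bases before the start, and in 0.93% of all windows. That match overlapped a TATAAA match by 1 base, and TATAAA was present in 13.62% of all windows. AGGTCA and CCGGAA were in 0 of the 14 windows, against 16.26% and 14.9% of all windows. Lpl had no entry. A match of letters is a description of the sequence and was not tested for binding.

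Mdga1 encodes a membrane-anchored immunoglobulin-family protein that binds neuroligins at synapses. It lies at chr17:29827949-29970087 on the minus strand (GRCm38, GENCODE M21). Normalized expression was 3163, 3233 and 3190 in the Fezf2+/+ libraries, 3707, 4863, 4489 and 4728 in the Fezf2-/- libraries and 3179 and 2762 in the Fezf2-/-; Fezf2-EnR libraries. All 4 Fezf2-/- libraries were above all 5 others, with replicate bc204 the lowest of them, and the Fezf2+/+ libraries had a coefficient of variation of 1.10%. Mdga1 rose in Fezf2-/- by 0.47 on the log2 scale (SE 0.09, 95% interval 0.27 to 0.67, adjusted p = 0.0434), where log2(value + 1) was fitted. It fell in Fezf2-/-; Fezf2-EnR against Fezf2-/- by 0.58 (SE 0.10, adjusted p = 0.0336). Against Fezf2+/+, the Fezf2-/-; Fezf2-EnR difference was -0.11 (95% interval -0.35 to 0.13, adjusted p = 0.611). The rise did not pass with litter as a block (adjusted p = 0.0864) or without any 1 of replicates bc201, bc202, bc203, bc205, bc206 and bc207 (adjusted p between 0.0980 and 0.182), and within litter m1 alone it was 0.55 (adjusted p = 0.00299). Without bc204, the library with the highest striatal markers, it was 0.55 as well (adjusted p = 0.00431). The fall did not pass with litter as a block (adjusted p = 0.106), with the 2 groups fitted alone (adjusted p = 0.101) or without any 1 of replicates bc201, bc202, bc205, bc206, bc207 and bc209 (adjusted p between 0.0609 and 0.413).

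Ntng2 encodes netrin-G2, a membrane-anchored axonal protein whose partner across the synapse is the product of Lrrc4. It lies at chr2:29194541-29253005 on the minus strand, and 13.98% of its exonic bases are shared with 6530402F18Rik on the same strand, so reads there could belong to either gene. The Fezf2+/+ libraries held 1438, 1798 and 1407, the Fezf2-/- libraries 1793, 2227, 1952 and 1918, and the Fezf2-/-; Fezf2-EnR libraries 1150 and 1036. Both Fezf2-/-; Fezf2-EnR libraries were below all 7 others, and Fezf2-/- overlapped Fezf2+/+ only through replicates bc204 (1793) and bc202 (1798). Ntng2 fell in Fezf2-/-; Fezf2-EnR against Fezf2-/- by 0.85 on the log2 scale (SE 0.11, 95% interval -1.10 to -0.60, adjusted p = 0.00734). The call was lost without replicate bc209 (adjusted p = 0.130) and was made with litter as a block (-0.73, adjusted p = 0.0197). The difference was 0.35 between Fezf2-/- and Fezf2+/+ (95% interval 0.13 to 0.58, adjusted p = 0.196) and -0.49 between Fezf2-/-; Fezf2-EnR and Fezf2+/+ (95% interval -0.76 to -0.23, adjusted p = 0.115). Under DESeq2 on recovered reads the latter had an adjusted p of 0.00992. Its mean in Fezf2-/-; Fezf2-EnR, 1093 ± 80.7, was the lowest of the 3 groups, and its mean in Fezf2+/+, 1548 ± 217, was between the other 2.

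Etv6 encodes a transcriptional repressor of the ETS family. It lies at chr6:134035700-134270158 on the plus strand, and 2.26% of its exonic bases overlap the antisense gene Gm17089. Normalized expression was 574, 500 and 533 in Fezf2+/+, 641, 722, 770 and 743 in Fezf2-/-, and 553 and 576 in Fezf2-/-; Fezf2-EnR. As for Mdga1, the 4 Fezf2-/- libraries were above the other 5 and replicate bc204 was the lowest of the 4. Etv6 rose in Fezf2-/- by 0.42 on the log2 scale (SE 0.08, 95% interval 0.24 to 0.61, adjusted p = 0.0458). The difference between Fezf2-/-; Fezf2-EnR and Fezf2-/- was -0.35 (95% interval -0.55 to -0.14, adjusted p = 0.133 by limma and 0.0478 by DESeq2). DESeq2, which called 3.08% of the genes it tested, was the only alternative to call it, and the other 18 of 19 did not. Between Fezf2-/-; Fezf2-EnR and Fezf2+/+ the difference was 0.08 (adjusted p = 0.705). The rise did not pass with litter as a block (0.47, adjusted p = 0.0515) or without any 1 of replicates bc201, bc202, bc203, bc205, bc206 and bc207 (adjusted p between 0.0858 and 0.254). Within litter m1 alone it was 0.48 (adjusted p = 0.0434), and without bc204 it was also 0.48 (adjusted p = 0.0306).

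Btbd3 encodes a BTB-domain protein that orients the dendrites of layer 4 neurons. It lies at chr2:138256565-138589292 on the plus strand. The Fezf2+/+ libraries held 1374, 1336 and 1083, and the Fezf2-/- libraries 2931, 2421, 1883 and 3073. Every Fezf2-/- library was above every Fezf2+/+ library. The 2 Fezf2-/-; Fezf2-EnR libraries stood apart, with 2274 in replicate bc208, inside the Fezf2-/- range, and 956 in replicate bc209, below all other libraries. Between Fezf2-/- and Fezf2+/+ the fitted difference was 1.01 on the log2 scale (SE 0.26, 95% interval 0.44 to 1.58, adjusted p = 0.143). Fitted on the 7 libraries of those 2 groups alone, which leaves out the spread between bc208 and bc209, the same difference had an adjusted p of 0.0186. Without bc208 it was 0.0190, without bc209 it was 0.0188, and within litter m1 the difference was 0.66 (adjusted p = 0.0216). The other 16 of 20 alternatives made no call, among them litter as a block, where the difference was 0.56 (adjusted p = 0.0521), and DESeq2 (adjusted p = 0.0587). The difference between Fezf2-/-; Fezf2-EnR and Fezf2-/- was -0.78 (95% interval -1.42 to -0.14, adjusted p = 0.224), which became -1.40 without bc208 (adjusted p = 0.0126) and -0.15 without bc209 (adjusted p = 0.892).

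Replicates bc208 and bc209 also differed in markers of neurons and progenitors. Glutamatergic markers did not all move together, nor did interneuron markers, as the plot of Btbd3 beside 5 markers shows. These 5 were chosen from the marker lists after their values were seen. Of 5 glutamatergic markers, 2 were lower in bc209 than in bc208 and 3 were higher. The vesicular glutamate transporter gene Slc17a7 was at 2834 in bc208 and 1271 in bc209, the lowest of the 9 libraries, whereas the transcription factor gene Neurod6 was at 11317 and 15315, the highest. Neurod2 (8600) and Tbr1 (7888) were also highest in bc209. Of 8 interneuron markers, 5 were lower in bc209 and 3 were higher, with Sst at 906 in bc208 and 399 in bc209 and Lhx6 at 1823 and 1958. All 7 striatal markers measured were lower in bc209 than in bc208, and for 5 of them bc209 was the lowest of the 9 libraries. All 4 intermediate progenitor markers were highest in bc209, but Neurog1, at 0 to 2.19 in each library, was near the floor and not tested. Eomes was at 260 in bc208 and 506 in bc209. The summed level of the 4 markers was 1686 in bc209 and 586 to 958 in the other 8 libraries. The part of these markers in the Btbd3 values was not tested.

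**Figure D1:**
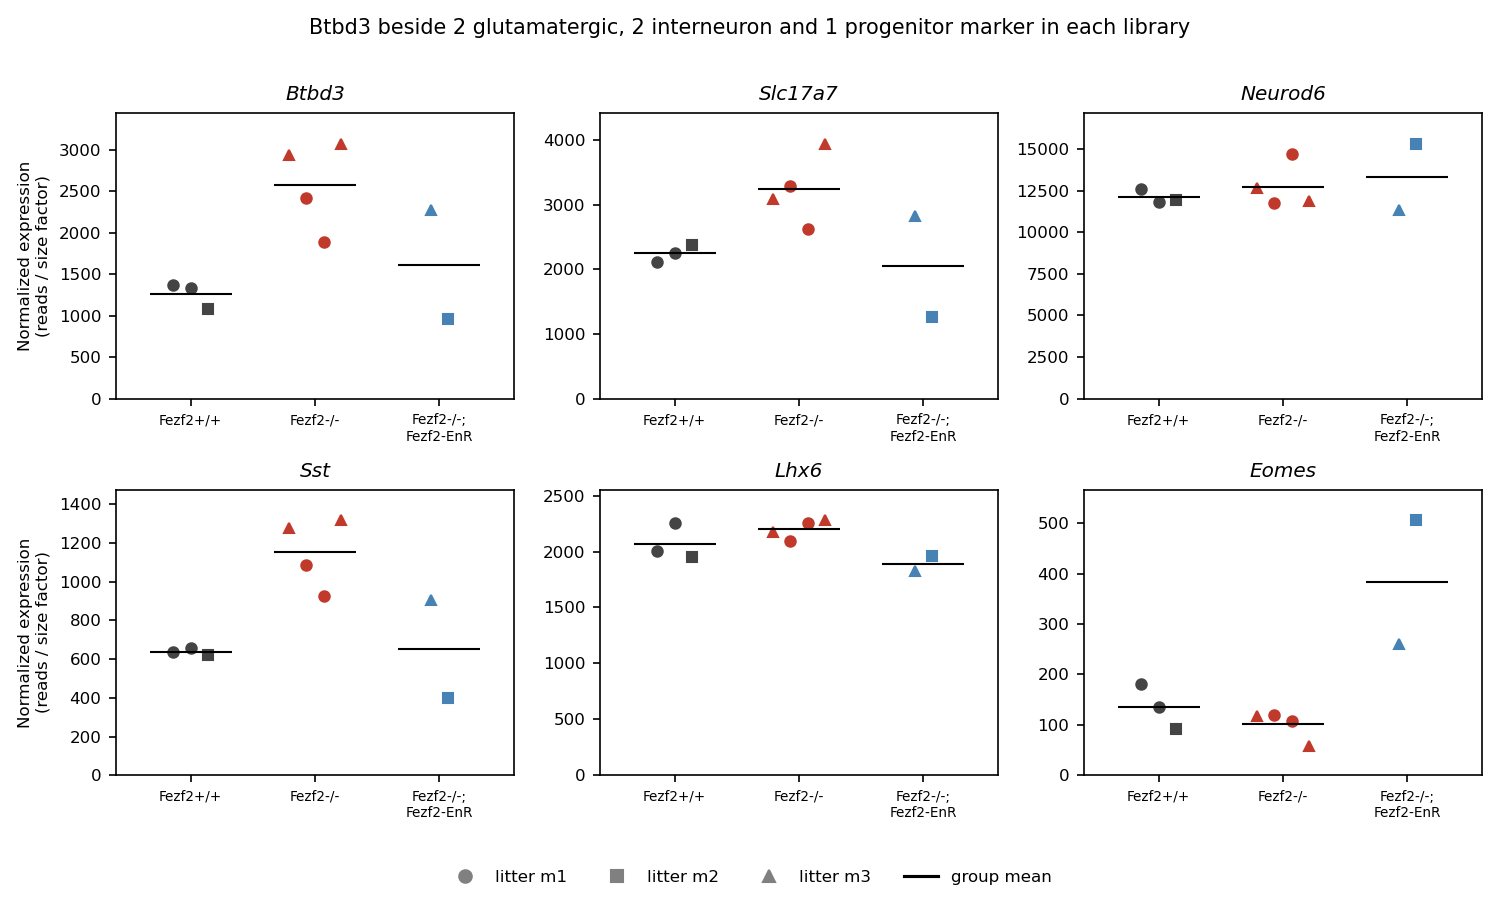
Normalized expression (reads divided by size factor, linear axes from 0) of Btbd3, Slc17a7, Neurod6, Sst, Lhx6 and Eomes in each library, with points shaped by litter and a line at the group mean. Replicate bc209 (Fezf2-/-; Fezf2-EnR, litter m2) was the lowest library for Btbd3 (956), Slc17a7 (1271) and Sst (399) and the highest for Neurod6 (15315) and Eomes (506), while Lhx6 was at 1958 there, beside 1823 in bc208.

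**Figure D2:**
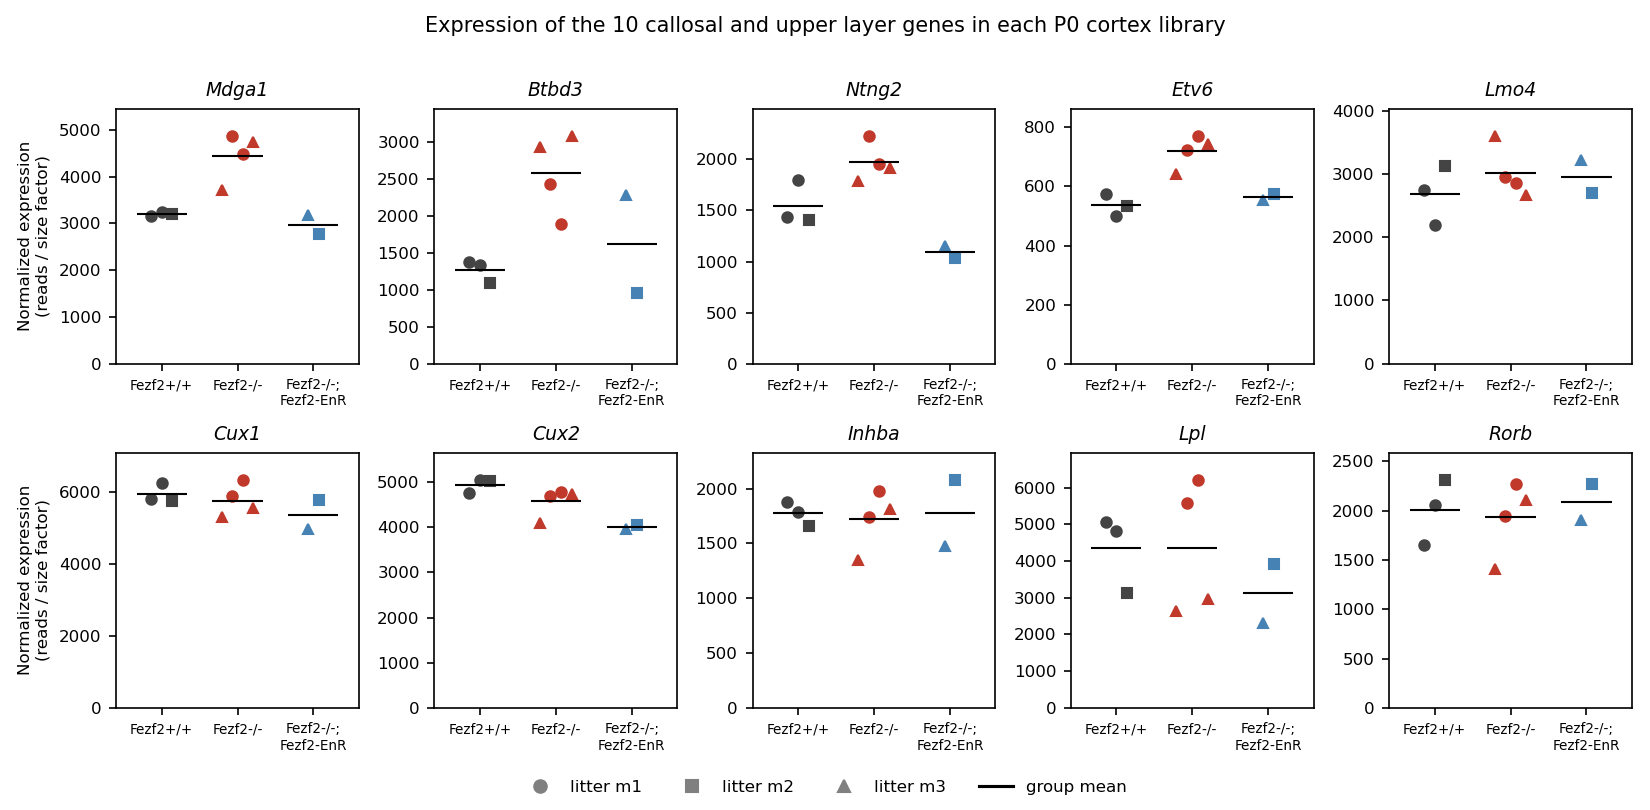
Normalized expression (reads divided by size factor, linear axes from 0) of the 10 genes in each library, with points shaped by litter and a line at the mean of each genotype. The 4 Fezf2-/- libraries were above the 5 others for Mdga1 and Etv6, and the 4 litter m1 libraries (4820 to 6205) were above the 5 others for Lpl.

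Cux1 and Cux2 encode cut homeodomain transcription factors of upper layer neurons. Cux1 lies at chr5:136248135-136567490 and Cux2 at chr5:121856366-122050102, both on the minus strand, and 1.97% of the exonic bases of Cux1 overlap the antisense gene Gm16599. Cux1 was at 5791, 6242 and 5751 in Fezf2+/+, 5296, 5876, 6324 and 5540 in Fezf2-/- and 4959 and 5768 in Fezf2-/-; Fezf2-EnR. These ranges overlapped, and the difference between Fezf2-/- and Fezf2+/+ was -0.04 on the log2 scale (95% interval -0.21 to 0.12, adjusted p = 0.874). Cux2 was at 4755, 5044 and 5032 in Fezf2+/+, 4099, 4691, 4788 and 4734 in Fezf2-/- and 3963 and 4041 in Fezf2-/-; Fezf2-EnR. The Cux2 means descended from Fezf2+/+ (4944 ± 164) through Fezf2-/- (4578 ± 322) to Fezf2-/-; Fezf2-EnR (4002 ± 55.2), and both Fezf2-/-; Fezf2-EnR libraries were below all 7 others. The Cux2 difference was -0.11 between Fezf2-/- and Fezf2+/+ (95% interval -0.25 to 0.03, adjusted p = 0.576). It was -0.30 between Fezf2-/-; Fezf2-EnR and Fezf2+/+ (95% interval -0.47 to -0.14), with an adjusted p of 0.120 by limma and 0.0127 by DESeq2.

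Rorb encodes a nuclear receptor that marks layer 4 neurons, and Lmo4 a LIM-only adaptor that binds LDB proteins. Rorb (chr19:18930605-19111196, minus strand) was at 1647, 2053 and 2308 in Fezf2+/+, 1406, 1943, 2269 and 2111 in Fezf2-/- and 1908 and 2272 in Fezf2-/-; Fezf2-EnR. The 3 groups overlapped, and the Fezf2-/- difference from Fezf2+/+ was -0.06 (95% interval -0.42 to 0.30, adjusted p = 0.925). Lmo4 (chr3:144188530-144205220, minus strand) was at 2755, 2190 and 3122 in Fezf2+/+, 3599, 2951, 2854 and 2674 in Fezf2-/- and 3217 and 2703 in Fezf2-/-; Fezf2-EnR. Its highest library was bc204, and its Fezf2-/- difference from Fezf2+/+ was 0.17 (95% interval -0.11 to 0.46, adjusted p = 0.688). For both genes the interval was wider than for Cux1, and a missed threshold does not show that the groups were alike.

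Inhba encodes a subunit of activin A, a secreted ligand of the activin receptors, and Lpl encodes lipoprotein lipase, a secreted enzyme that releases fatty acids from triglycerides. Inhba (chr13:16011851-16031621, plus strand) was at 1880, 1791 and 1655 in Fezf2+/+, 1346, 1737, 1981 and 1812 in Fezf2-/- and 1479 and 2076 in Fezf2-/-; Fezf2-EnR. The groups overlapped, with a Fezf2-/- difference from Fezf2+/+ of -0.06 (95% interval -0.37 to 0.25, adjusted p = 0.914). Lpl (chr8:68880491-68907448, plus strand) was at 5079, 4820 and 3142 in Fezf2+/+, 2641, 5591, 6205 and 2980 in Fezf2-/- and 2325 and 3929 in Fezf2-/-; Fezf2-EnR. The highest Lpl library was 2.67-fold above the lowest, and the split followed litter. The 4 libraries of litter m1 were at 4820 to 6205, and the 5 of litters m2 and m3 at 2325 to 3929. Over all litters the Fezf2-/- difference in Lpl from Fezf2+/+ was -0.07 (95% interval -0.76 to 0.63, adjusted p = 0.962), and within litter m1 it was 0.25 (adjusted p = 0.154), where both Fezf2-/- libraries were above both Fezf2+/+ libraries.

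**Figure D3:**
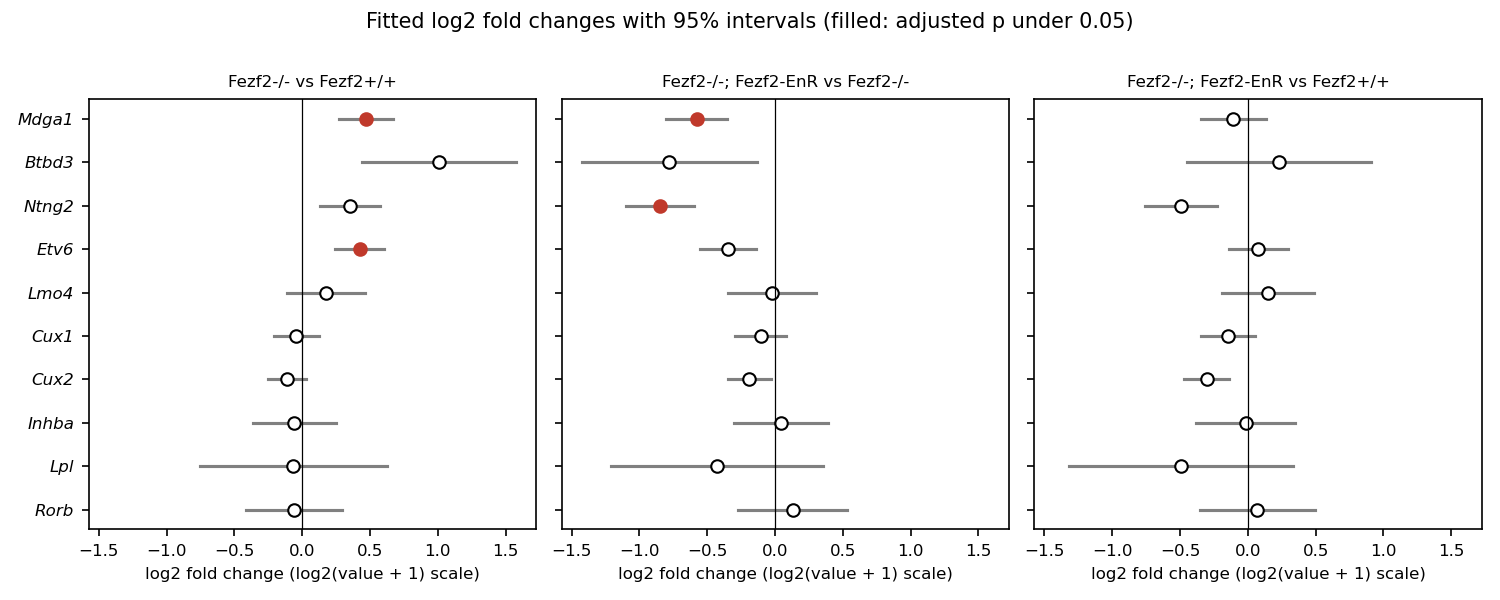
Fitted log2 fold changes (points, log2(value + 1) scale) of the 10 genes in the 3 comparisons with 95% intervals (lines), filled where the adjusted p was under 0.05. Mdga1 (0.47) and Etv6 (0.42) are filled in the first panel, Mdga1 (-0.58) and Ntng2 (-0.85) in the second and none in the last.

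Counted together, 2 of the 10 genes rose and 0 fell in Fezf2-/- against Fezf2+/+, where 0.858% of all genes tested were called. The libraries of the 2 groups did not overlap for 3 of the 10 (Mdga1, Btbd3 and Etv6, all higher in Fezf2-/-), against 13.0% of all genes, and 4 had an unadjusted p under 0.05, against 10.8%. Between Fezf2-/-; Fezf2-EnR and Fezf2-/-, 0 rose and 2 fell, with 0.766% of all genes called, and 4 of the 10 did not overlap (Mdga1, Ntng2, Etv6 and Cux2, all lower), against 24.6%, while 5 had an unadjusted p under 0.05, against 16.9%. Between Fezf2-/-; Fezf2-EnR and Fezf2+/+, 0 of the 10 were called by limma, with 0.117% of all genes called. Unadjusted p-values were under 0.05 for 2 of the 10, Ntng2 and Cux2, a share near the 19.3% over all genes. DESeq2 called the same 2, with 5.58% of the genes it tested called, and edgeR called 0, with 0.0926% called. The libraries of the 2 groups did not overlap for these 2 genes, against 34.6% of all genes. Median log2 differences of the 10 genes in the 3 comparisons were 0.06, -0.27 and -0.06, and each median over all genes tested was within 0.01 of 0. Mdga1, Btbd3, Ntng2 and Etv6 were labelled in a heat map of genes that the study chose on the same libraries, so their share of the calls is not independent evidence. The comparisons with Fezf2-/- share its 4 libraries, so opposite directions in them are not separate observations.

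Values within a litter could be set side by side for each pair of groups. In litter m3, Fezf2-/-; Fezf2-EnR replicate bc208 was below both Fezf2-/- libraries for 7 of the 10 genes and for 34.2% of all genes tested. The 7 were Mdga1 (3179 against 3707 and 4728), Ntng2 (1150 against 1793 and 1918), Etv6 (553 against 641 and 743) Btbd3 (2274 against 2931 and 3073), Cux1 (4959 against 5296 and 5540), Cux2 (3963 against 4099 and 4734) and Lpl (2325 against 2641 and 2980). In litter m2, Fezf2-/-; Fezf2-EnR replicate bc209 was below Fezf2+/+ replicate bc203 for 6 of the 10 genes and for 48.9% of all genes tested. The 6 were Ntng2 (1036 against 1407), Cux2 (4041 against 5032), Mdga1 (2762 against 3190), Btbd3 (956 against 1083), Lmo4 (2703 against 3122) and Rorb (2272 against 2308). Each of these sets holds 1 library per group on at least 1 side, so no test was made.

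Levels between genes can be compared per kb of exonic sequence. In Fezf2+/+ the level per kb was 762 ± 133 (n = 3) for Lmo4, followed by Cux2 (490 ± 16.2), Lpl (415 ± 100.4), Ntng2 (388 ± 54.5), Mdga1 (336 ± 3.71), Cux1 (296 ± 13.6), Inhba (278 ± 17.8), Btbd3 (219 ± 27.3), Rorb (181 ± 30.1) and Etv6 (89.6 ± 6.26). Neighbours from Cux2 to Mdga1 in this order differed by less than the larger of their SDs. In Fezf2-/- the level per kb of Btbd3 was 446 ± 93.6 and that of Mdga1 467 ± 54.3, beside 454 ± 32.0 for Cux2, so the 3 genes lay within 1 SD of each other there. Exonic length joins all annotated isoforms of a gene.

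**Figure D4:**
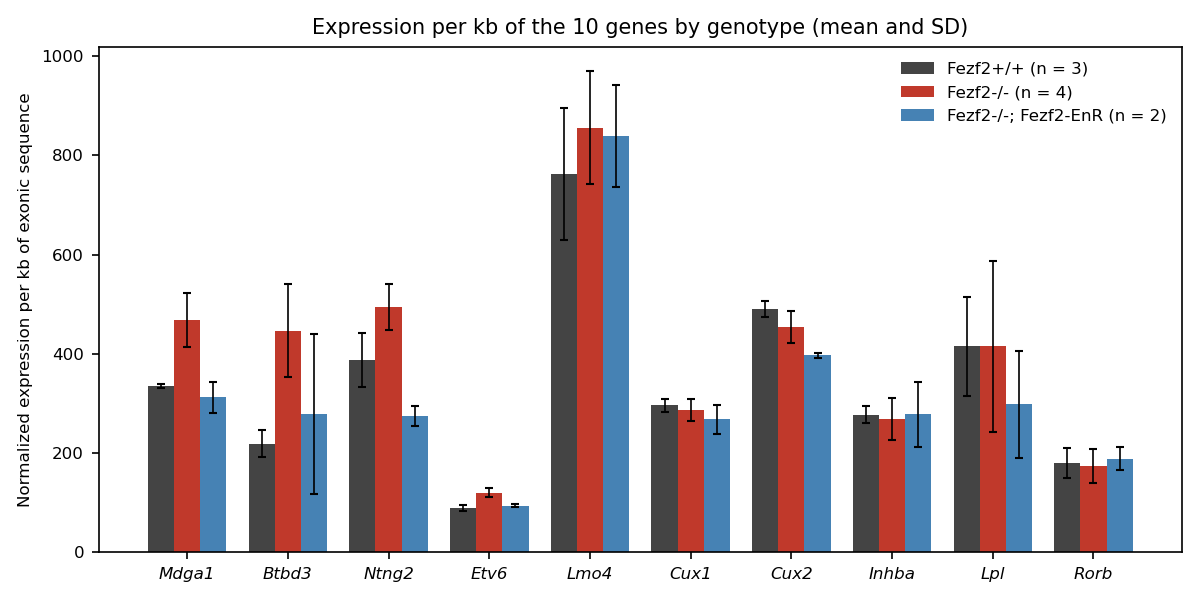
Normalized expression per kb of exonic sequence (linear axis from 0) of the 10 genes, with bars at the mean and error bars at the SD over libraries (n = 3 in Fezf2+/+, n = 4 in Fezf2-/-, n = 2 in Fezf2-/-; Fezf2-EnR). Lmo4 had the tallest bars (762 in Fezf2+/+) and Etv6 the shortest (89.6).

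Other genes of callosal and upper layer neurons were listed from textbook knowledge, and 23 of 24 were tested, without Rspo1. Of the 23, 0 rose and 1 fell in Fezf2-/- against Fezf2+/+, where 0.858% of all genes tested were called. Their median log2 difference was 0.04. The libraries of the 2 groups did not overlap for 8 of the 23 (6 higher and 2 lower in Fezf2-/-), against 13.0% of all genes. The called gene that fell was Dkk3, which encodes a secreted Dickkopf-family protein, at 1776 ± 140 in Fezf2+/+ and 1095 ± 182 in Fezf2-/- (log2 -0.71, SE 0.14, adjusted p = 0.0466). Calb1, the gene of a calcium-binding protein, had values of 340, 331 and 297 in Fezf2+/+, 760, 588, 372 and 786 in Fezf2-/- and 620 and 197 in bc208 and bc209, so it too stood at a low value in bc209. Its Fezf2-/- difference from Fezf2+/+ was 0.90 (adjusted p = 0.375). Plxnd1, a semaphorin receptor gene of callosal neurons, differed by 0.43 on the log2 scale in the same comparison (adjusted p = 0.354) and by -0.84 between Fezf2-/-; Fezf2-EnR and Fezf2-/- (adjusted p = 0.0759). In the comparisons of Fezf2-/-; Fezf2-EnR with Fezf2-/- and with Fezf2+/+, limma called 0 of the 23. Unadjusted p-values were under 0.05 for 8 and 6 of the 23, beside 16.9% and 19.3% of all genes, edgeR called 0 and 0, beside 0.704% and 0.0926%, and DESeq2 called 3 and 1, beside 3.08% and 5.58%. The call of Dkk3 was lost without any 1 of the 7 Fezf2+/+ and Fezf2-/- libraries, bc201 to bc207 (adjusted p between 0.0555 and 0.216), and was made with litter as a block (log2 -0.52, adjusted p = 0.0417). Without replicate bc203, limma called 1 of the 23 between Fezf2-/-; Fezf2-EnR and Fezf2+/+, a count not set against all genes in that fit.

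Paralogs and binding partners of the 10 genes gave 20 tested of 22 listed. In Fezf2-/- against Fezf2+/+, 0 rose and 1 fell, beside 0.858% of all genes called. In Fezf2-/-; Fezf2-EnR against Fezf2-/-, 1 rose and 0 fell, beside 0.766%. Both calls were Ldb2, a LIM-domain-binding partner of LMO proteins that is also known from subcerebral neurons, at 3481 ± 326 in Fezf2+/+, 2608 ± 155 in Fezf2-/- and 3617 ± 308 in Fezf2-/-; Fezf2-EnR (log2 -0.41, adjusted p = 0.0361, and log2 0.47, adjusted p = 0.0395). The fall of Ldb2 did not pass with litter as a block (adjusted p = 0.0911) or without any 1 of bc201 to bc207 (adjusted p between 0.0531 and 0.166). Its rise did not pass with litter as a block (adjusted p = 0.0520), with the 2 groups fitted alone (adjusted p = 0.0651) or without any 1 of bc202, bc204, bc205, bc206, bc207 and bc209 (adjusted p between 0.0633 and 0.470). Unadjusted limma p-values were under 0.05 for 4 of the 20 between Fezf2-/- and Fezf2+/+, beside 10.8% of all genes. They were under 0.05 for 6 between Fezf2-/-; Fezf2-EnR and Fezf2-/-, beside 16.9%. In the last comparison, of Fezf2-/-; Fezf2-EnR with Fezf2+/+, 0 of the 20 were called by limma, with 4 at an unadjusted p under 0.05, a share near the 19.3% over all genes. The differences between Fezf2-/- and Fezf2+/+ were -0.02 for Mdga2 (adjusted p = 0.950), 0.31 for Ntng1 (adjusted p = 0.687) and 0.01 for Lrrc4, the partner of netrin-G2. Among activin genes, the receptor gene Acvr2a differed by 0.39 (adjusted p = 0.268) and the inhibitor gene Fst by -0.02.

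**Figure D5:**
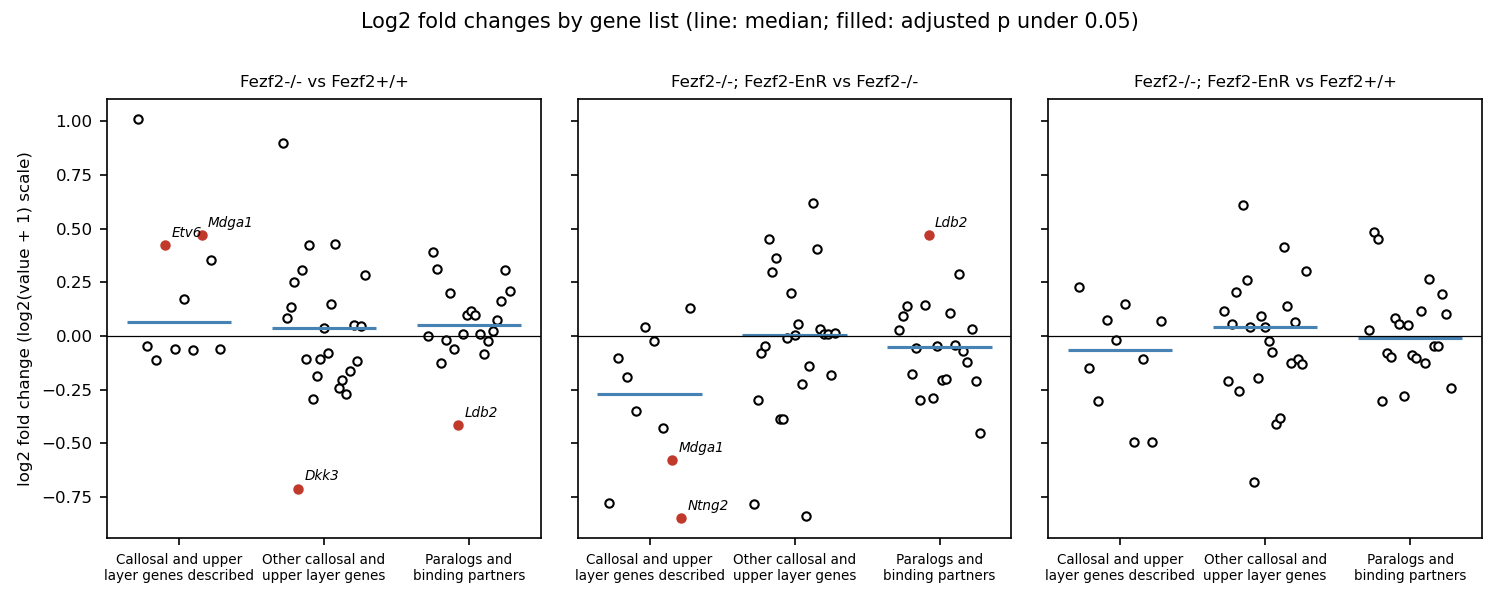
Fitted log2 fold changes (log2(value + 1) scale) of the 10 genes described, 23 other callosal and upper layer genes and 20 paralogs and partners in the 3 comparisons, with a line at each median and filled points at an adjusted p under 0.05. Filled points are Mdga1, Etv6, Dkk3 and Ldb2 in the first panel, Mdga1, Ntng2 and Ldb2 in the second and none in the last.

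The gene with the most similar pattern to each of the 10 was the 1 with the smallest root mean square difference in centred log2 values over the 9 libraries. For Mdga1 it was Kazn (difference 0.0817, beside a spread of 0.281 for Mdga1 itself), for Ntng2 Bean1 (0.0793), for Etv6 Psd3 (0.0629) and for Btbd3 Camk2d (0.124, beside a spread of 0.586). Camk2d had values of 545, 444 and 385 in Fezf2+/+, 971, 975, 630 and 1230 in Fezf2-/-, 781 in bc208 and 307 in bc209. It was chosen on the same 9 libraries, so its likeness in bc208 and bc209 is fixed by the choice. For the other genes the nearest patterns were those of Abhd17c (Cux1), Sec61a2 (Cux2), Rdh10 (Lmo4), Lars (Inhba), Tbc1d8 (Rorb) and RP23-349I9.7 (Lpl), at differences from 0.0237 for Cux1 to 0.124 for Lpl.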

How the data were processed

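Total RNA from each P0 cortex had been made into polyA-selected libraries. The authors counted reads per gene and divided each library by a DESeq size factor, so the deposited values are a normalized signal to 2 decimals, 1 column per library. The submitters' processing notes name Bowtie, STAR, DESeq and mm10. The counting tool, annotation release and use of strand are not given in the sources used here.

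log2(value + 1) was fitted with limma 3.58.1 (lmFit, eBayes with trend) in R 4.3.3 for the 16197 genes whose mean over the 9 libraries reached 10. The model held 1 coefficient per genotype, all libraries together and no covariate. p-values were adjusted by Benjamini-Hochberg over all genes tested. Since only 2 libraries were Fezf2-/-; Fezf2-EnR, their tests borrow the spread of the other genotypes. Whole reads were recovered by dividing by the value of 1 read (100.0% of values up to 2000 were whole within 0.006) and tested with edgeR 4.0.16 and DESeq2 1.42.0 as alternatives. In replicates bc204 and bc208, 1 read is worth 1.0043 and 0.9956, so low values alone do not show whole reads there.

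The 10 genes, the other gene and marker lists (textbook knowledge) and the tests were chosen with earlier results of these data known. All 10 genes, all called genes of the lists and the 3 other upper layer genes with the largest differences between Fezf2-/- and Fezf2+/+ are named. Other choices tried were the pseudocount, the low-value filter, the scaling, the groups fitted, litter and leaving out each library. Coordinates and lengths are from GENCODE M21, in which 9 of the 10 identifiers had the same version. The fit was tested on simulated data with larger changes than those called among the 10 genes and no litter effect. That test does not cover differences as small as theirs. The striatal marker Drd1 was not analysed here. A further gene that the rule named is not reported here.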

Additional observations from a re-analysis of the deposited data

Results flagged for a closer look

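In the 4 Fezf2-/- libraries, Cux2 in replicate bc204 (4098.62) stood below the other 3 (4691, 4788 and 4734), with a gap to the nearest of them of 0.859 of the group's range, above Dixon's critical value for 4 samples at 95%. The other 9 genes had no such library among the Fezf2-/- replicates, and such a flag arises by chance in about 1 in 20 groups, with 10 groups examined here. The same library had the highest summed level of striatal markers (3472). Without it the Cux2 difference between Fezf2-/- and Fezf2+/+ was -0.06 on the log2 scale, beside -0.11 with it, and neither was called.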

How the results depend on the processing

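With 2 to 4 mice per genotype and genotypes split unevenly over 3 litters, calls near the threshold moved with small changes. The number of the 10 genes called between Fezf2-/- and Fezf2+/+ (2) was 0 with litter as a block, 4 at an unadjusted p under 0.05 and 0 to 3 with 1 library left out. Between Fezf2-/-; Fezf2-EnR and Fezf2-/- (2) it was 1 with the 2 groups fitted alone, 1 with litter as a block, 5 unadjusted and 0 to 3 with 1 library left out, and between Fezf2-/-; Fezf2-EnR and Fezf2+/+ (0) it was 2 under DESeq2 and 2 unadjusted. Where 1 Fezf2-/-; Fezf2-EnR library was left out, the remaining one was assumed to vary like the other groups. Over all genes, called numbers were 139, 124 and 19 by limma, 315, 450 and 641 by DESeq2, and 66 to 217, 21 to 1088 and 8 to 491 with 1 library left out. With 2 groups fitted alone they were 221, 67 and 12, unadjusted 1752, 2741 and 3118, within litter m1 233 in the first, and with litter as a block 32 and with a mean of at least 50 10 in the last. For the 23 other upper layer genes, the 1 call between Fezf2-/- and Fezf2+/+ became 0 with a mean of at least 50 and 2 with the 2 groups fitted alone. It became 8 unadjusted, beside 10.8% of all genes.

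Over 580 refits of the 10 genes' log2 differences, 519 kept their direction and side of the threshold, 23 lost a call, 8 gained one and 30 turned direction, all 30 in differences that were not called; the causes were not tested. Between Fezf2-/- and Fezf2+/+ with litter as a block, Cux1 turned to 0.045, Inhba to 0.10, Lpl to 0.33 and Rorb to 0.11, and within litter m1 alone these were 0.020, 0.016, 0.25 and 0.19. Lpl was 0.0036 under edgeR and 0.0021 under DESeq2. With 1 library left out, that comparison ranged from -0.13 to 0.054 for Inhba, -0.28 to 0.14 for Lpl and -0.19 to 0.085 for Rorb. Against Fezf2-/-, Fezf2-/-; Fezf2-EnR ranged from -0.15 to 0.10 for Lmo4, -0.21 to 0.0055 for Cux1, -0.20 to 0.29 for Inhba and -0.015 to 0.26 for Rorb. Against Fezf2+/+, it ranged from -0.40 to 0.85 for Btbd3, -0.26 to 0.23 for Inhba and -0.064 to 0.20 for Rorb, and with litter as a block Inhba was 0.15 and Lpl 0.17. TMM and median-ratio rescaling moved no call of the 10 genes. The genotypes share no replicate numbers, and litter, fitted as a block or within litter m1, was the only link between their mice.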

Other observations

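Among the other callosal and upper layer genes, Epha3, an ephrin receptor gene chosen here after its values were seen, was at 2339 ± 58.3 (n = 3) in Fezf2+/+, 2902 ± 159 (n = 4) in Fezf2-/- and 3608 ± 762 (n = 2) in Fezf2-/-; Fezf2-EnR. Its difference between Fezf2-/-; Fezf2-EnR and Fezf2+/+ was 0.61 on the log2 scale (adjusted p = 0.0862 by limma). Both Fezf2-/-; Fezf2-EnR libraries were above all 3 Fezf2+/+ libraries, and 34.6% of all genes had no overlap between these groups. Replicate bc208 (3068) was inside the Fezf2-/- range of 2712 to 3097, and bc209 was at 4147.

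Summed marker levels that belong to no result above were as follows, in normalized expression. For 7 microglial genes the sum was 850 to 981 in Fezf2+/+, 888 to 1042 in Fezf2-/- and 956 to 971 in Fezf2-/-; Fezf2-EnR, and for 6 endothelial genes it was 2372 to 2923, 2620 to 3251 and 2471 to 2720. For 5 thalamic genes it was 1288 to 1444, 1705 to 2126 and 1643 to 1683. Among them Slc17a6, a vesicular glutamate transporter gene, rose in Fezf2-/- (711 ± 63.2 to 1076 ± 148, log2 0.59, SE 0.11, adjusted p = 0.0367), and the thalamic gene Gbx2 was at 0 to 9.04 in each library. In Fezf2+/+ and Fezf2-/-, Prox1 was at 512 ± 39.3 and 621 ± 59.9, Tcf7l2 at 47.4 ± 3.25 and 55.1 ± 6.67, and Lef1 at 69.1 ± 14.7 and 71.4 ± 7.37. For 5 genes of glutamatergic cortical neurons the sum was 28522 to 30011, 27570 to 31664 and 27748 to 33518 in the 3 groups, and the dorsal telencephalic gene Emx1 among them fell in Fezf2-/- (554 ± 36.5 to 409 ± 23.0, log2 -0.44, SE 0.08, adjusted p = 0.0296). Eomes rose in Fezf2-/-; Fezf2-EnR against Fezf2-/- (101.4 ± 28.8 to 383 ± 174, log2 1.88, SE 0.36, adjusted p = 0.0426). Each adjusted p is from the limma fit over all genes tested, and the part of these genes in the results above was not tested.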
